A study of Mus musculus with 20 samples.

Results

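CC chemokines are small secreted proteins that draw leukocytes into tissue through G protein-coupled receptors, the CC receptors. Inflamed macrophages are a major source of them. Ccl2, Ccl7 and Ccl12 are ligands of Ccr2, the receptor that brings inflammatory monocytes out of the bone marrow, and Ccl7 also binds Ccr3. Ccl3, Ccl4 and Ccl5 act on macrophages, T cells and natural killer cells. Ccr1 is a receptor of Ccl3 and Ccl5, and Ccl5 also reaches eosinophils through Ccr3. Ccl22 attracts T helper type 2 and regulatory T cells, and is known as a gene of alternatively activated macrophages and dendritic cells in allergic airways. The 9 genes described here are these 7 ligands and the receptors Ccr2 and Ccr3, taken by symbol from the 78409 genes of the expression matrix. Their levels were compared over 5 treatment groups, with the monocyte attractants Ccl2, Ccl7 and Ccl12 set against Ccl3, Ccl4 and Ccl5.

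All 20 libraries came from wild-type bone marrow-derived macrophages (BMDMs) of female C57BL/6J mice at culture day 7, with 4 libraries in each group. The cells received PBS or 1 of 4 preparations of bronchoalveolar lavage fluid (BALF) from mice with ovalbumin (OVA)-induced allergic airway inflammation. The donor mice were RNY1+/+ or RNY1-/-, the latter lacking the Y RNA gene RNY1, so the genotype is that of the fluid and not of the macrophages. Size exclusion chromatography separated each fluid into a fraction enriched for extracellular vesicles (EVFx) and a fraction enriched for protein (ProteinFx), which were stored for 5 days. EVFx was dosed at 35000000 particles per µL and ProteinFx at 0.75 µg per µL, so doses match between genotypes but not between fractions. PBS-treated cells received no airway fluid, and the sources used here give neither the length of treatment nor the source (donor pools, BMDM cultures or wells) of the 4 libraries in each group. P-values therefore measure the spread between these libraries, which may be technical.

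Libraries held 2510005 to 8277366 deduplicated counts of transcript 3′ ends. Levels are given in CPM, counts scaled to a library total of 1000000, and 3 counts, the lowest level read as measurable, were worth 0.362 to 1.195 CPM. All 10 macrophage markers examined had counts in every group, with a summed level of 8713 to 13561 CPM per library. Cd163 stayed under 3 counts per library with every fraction, at no more than 0.254 CPM. Because the treated cells were wild type in every group, no targeted gene in these libraries can check the donor genotype. The RNY1-/- ProteinFx libraries fell into 2 pairs. The mean squared difference between replicates 1 and 2 was 3.80 times that of counting error and between replicates 3 and 4 2.5 times, against 13.9 to 16.8 times across the pairs, so results that rest on this group are also given within the pairs. The RNY1-/- EVFx libraries showed a weaker split by the same replicate numbers, 3.28 and 4.05 times within the pairs and 6.56 to 9.54 times across. No results are given within those EVFx pairs. PBS replicate 3 stood 34.5 and 39.2 times from PBS replicates 1 and 2. Without it the same genes were called against PBS, except that Ccl3 missed the fold limit with RNY1+/+ ProteinFx (0.95) and Ccr2 fell below the filter on low counts with RNY1+/+ EVFx.

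The 6 measured ligands lie on mouse chromosome 11 in an annotation of GRCm38, in 2 groups of neighbours. Ccl2 (ENSMUSG00000035385), Ccl7 (ENSMUSG00000035373) and Ccl12 (ENSMUSG00000035352) stand in a row of CC genes with Ccl11, Ccl8 and Ccl1. After 25 other protein-coding genes come Ccl5 (ENSMUSG00000035042), Ccl9, Ccl6, Ccl3 (ENSMUSG00000000982) and Ccl4 (ENSMUSG00000018930). Ccr3 (ENSMUSG00000035448) and Ccr2 (ENSMUSG00000049103) are adjacent on chromosome 9, close to Ccr1, and Ccl22 (ENSMUSG00000031779) is on chromosome 8.

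RefSeq promoters were on hand for 5 of the 9 genes. The 250 bases before the start of Ccl12 and Ccl3, 1 gene of each ligand set, and of the neighbouring receptors Ccr3 and Ccr2 are shown. Ccl12 was highest with ProteinFx and Ccl3 with EVFx, and Ccr2 but not Ccr3 was higher with RNY1-/- than with RNY1+/+ ProteinFx. With EVFx, however, both ligands rose and both receptors fell. The promoters are written 5′ to 3′ on the strand of the gene (GRCm38.p6), with capitals for letters that match a searched motif. Ccl12 is read from the plus strand of chr11:82101595-82101844, Ccl3 from the minus strand of chr11:83649379-83649628, Ccr3 from the plus strand of chr9:124021721-124021970 and Ccr2 from the plus strand of chr9:124101933-124102182.
Ccl12: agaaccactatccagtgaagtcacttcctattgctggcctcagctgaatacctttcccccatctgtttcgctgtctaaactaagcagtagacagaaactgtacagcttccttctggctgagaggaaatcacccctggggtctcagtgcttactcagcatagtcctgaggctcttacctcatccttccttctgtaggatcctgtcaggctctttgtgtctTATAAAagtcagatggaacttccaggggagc
Ccl3: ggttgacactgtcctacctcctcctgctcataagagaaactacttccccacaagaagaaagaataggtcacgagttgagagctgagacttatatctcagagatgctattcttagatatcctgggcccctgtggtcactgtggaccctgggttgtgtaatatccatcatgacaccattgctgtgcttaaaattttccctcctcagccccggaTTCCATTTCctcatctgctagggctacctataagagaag
Ccr3: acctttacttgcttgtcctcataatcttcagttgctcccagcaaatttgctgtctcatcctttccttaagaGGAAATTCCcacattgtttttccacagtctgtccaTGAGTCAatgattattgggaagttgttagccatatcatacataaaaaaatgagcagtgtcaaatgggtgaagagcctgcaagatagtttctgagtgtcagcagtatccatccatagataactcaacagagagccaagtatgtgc
Ccr2: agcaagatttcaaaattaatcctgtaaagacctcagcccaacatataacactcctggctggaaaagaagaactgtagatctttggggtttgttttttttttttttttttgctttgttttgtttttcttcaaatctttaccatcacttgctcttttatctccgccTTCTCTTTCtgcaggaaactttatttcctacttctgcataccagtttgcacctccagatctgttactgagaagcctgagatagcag
Both strands were searched for an NF-kB-like run (GGANTTTCC), an interferon-response-like run (GAAANNGAA), an AP-1-like run (TGANTCA) and a TATA box (TATAAA). Ccl12 held a TATA box at -31 to -26 from the start, and Ccl3 an interferon-response-like run at -39 to -31. Ccr3 held an NF-kB-like run at -179 to -171 and an AP-1-like run at -144 to -138, and Ccr2 an interferon-response-like run at -86 to -78. Among 32851 promoters of the same length, 1.07% held the NF-kB-like run, 7.13% the interferon-response-like run, 6.75% the AP-1-like run and 12.37% the TATA box. The matches describe letters and not binding.

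The monocyte attractants were near the PBS level with EVFx, Ccl12 apart, and far above it with ProteinFx. Ccl2 was at 94.1, 90.8, 132 and 48.9 CPM in the 4 PBS libraries, at 161, 147, 54.9 and 65.4 CPM with RNY1+/+ EVFx and at 158, 155, 51.5 and 102 CPM with RNY1-/- EVFx. These 3 groups overlapped. With RNY1+/+ ProteinFx Ccl2 was at 2232, 3224, 2594 and 3097 CPM, and with RNY1-/- ProteinFx at 949, 1043, 1876 and 1494 CPM, above every library of the other 3 groups. Ccl2 thus rose by 5.11 on the log2 scale with RNY1+/+ ProteinFx (standard error (SE) 0.28, adjusted p = 5.5e-08) and by 3.96 with RNY1-/- ProteinFx (SE 0.34, adjusted p = 1.2e-05).

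Ccl7 was likewise highest with RNY1+/+ ProteinFx and next with RNY1-/- ProteinFx, at levels similar to those of Ccl2, while the means of the other groups stood in the reverse order. It was at 105, 90.5, 88.7 and 43.6 CPM with PBS, at 103, 87.7, 30.6 and 38.7 CPM with RNY1+/+ EVFx and at 67.8, 68.8, 28.8 and 40.04 CPM with RNY1-/- EVFx. RNY1+/+ ProteinFx brought it to 2775, 3174, 3512 and 2908 CPM, and RNY1-/- ProteinFx to 1345, 1566, 2343 and 1661 CPM. The ProteinFx groups overlapped neither each other nor the other 3 groups, among which the ranges overlapped. The rise was 5.41 with RNY1+/+ ProteinFx (SE 0.25, adjusted p = 1.5e-08) and 4.48 with RNY1-/- ProteinFx (SE 0.30, adjusted p = 2e-06).

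Ccl12 had the lowest PBS level of the set and the largest fold change of the 9 genes against PBS. PBS libraries held 23.4, 16.4, 21.3 and 10.7 CPM, RNY1+/+ EVFx libraries 133, 104, 46.9 and 56.4 CPM and RNY1-/- EVFx libraries 140.3, 114, 39.4 and 79.1 CPM. Both EVFx groups lay above PBS, and Ccl12 rose by 2.44 (SE 0.35, adjusted p = 0.00019) and 2.64 (SE 0.36, adjusted p = 1e-04). Its levels were 1839, 1957, 1700.3 and 1235 CPM with RNY1+/+ ProteinFx and 1009, 1177, 1348 and 1092 CPM with RNY1-/- ProteinFx, a rise of 6.73 (SE 0.26, adjusted p = 3e-09) and 6.09 (SE 0.25, adjusted p = 8.3e-08). In both EVFx groups replicates 1 and 2 were higher than replicates 3 and 4 for all 3 attractants. Replicate 3 was the shallowest library of each EVFx group, and RNY1+/+ EVFx replicate 4 was the deepest of all 20. The cause of the difference between these replicates was not tested.

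**Figure D1:**
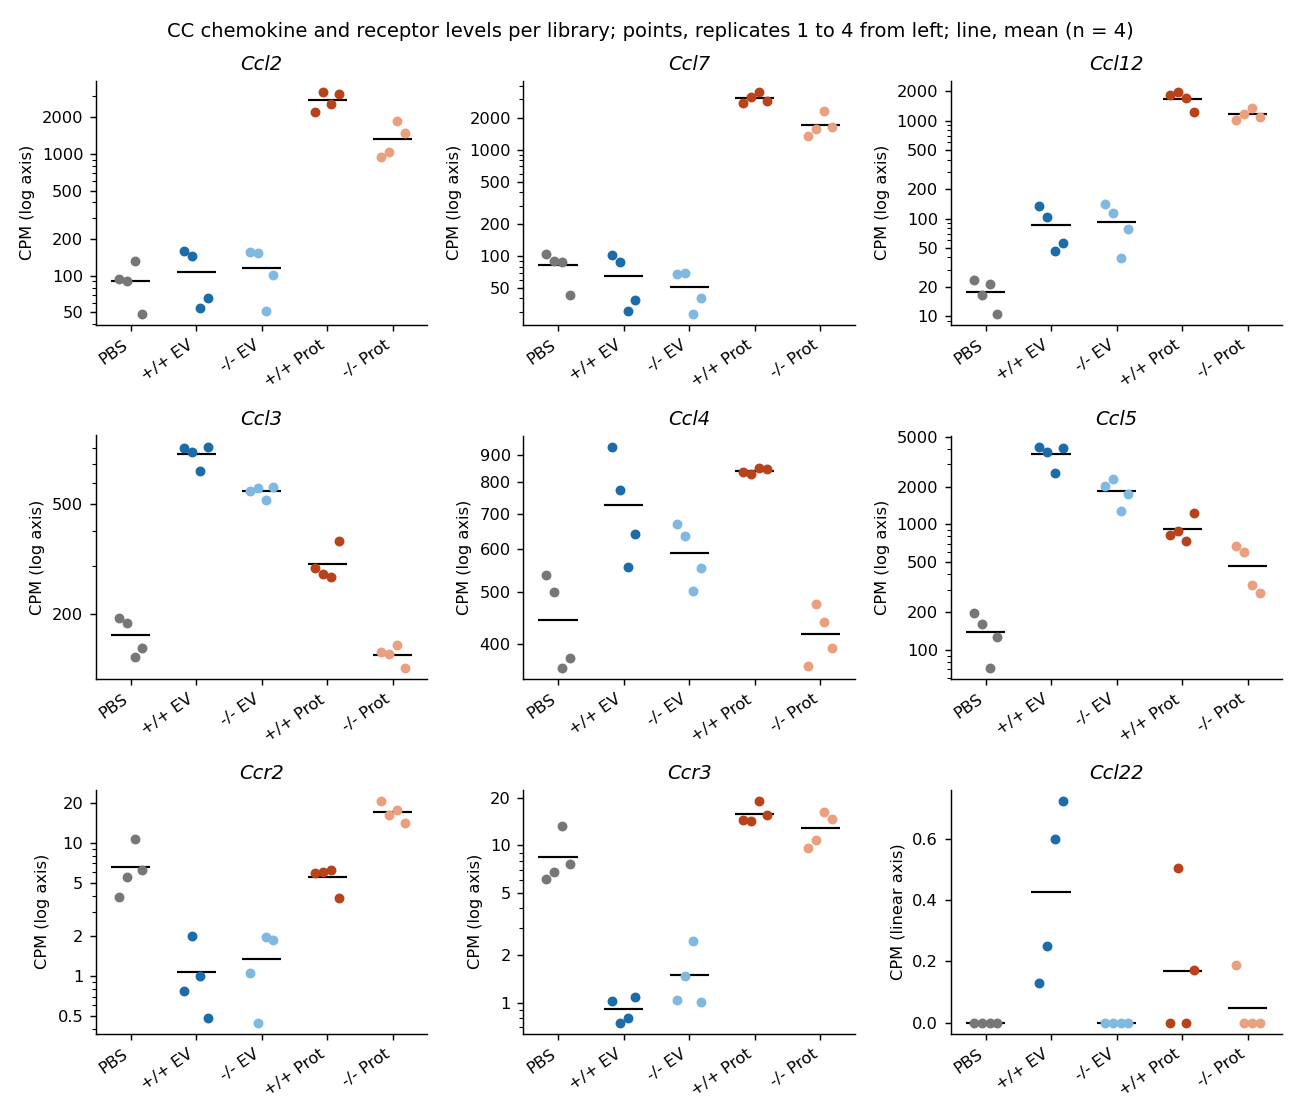
Level of each of the 9 genes in every library, in CPM on a log axis (Ccl22 on a linear axis), for PBS, RNY1+/+ and RNY1-/- EVFx (EV) and RNY1+/+ and RNY1-/- ProteinFx (Prot). Points are the 4 replicates in order and lines are means; Ccl2, Ccl7 and Ccl12 stand at 949 CPM or more with ProteinFx and at 161 CPM or less in the other groups, and Ccl3 and Ccl5 are highest with RNY1+/+ EVFx.

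Ccl3 and Ccl5, in contrast, were highest with EVFx. Ccl3 was at 195, 186, 140.0 and 152 CPM with PBS, at 798, 774, 662 and 810.3 CPM with RNY1+/+ EVFx and at 562, 575, 518 and 579.8 CPM with RNY1-/- EVFx. With RNY1+/+ ProteinFx it was at 295, 280.1, 273 and 368 CPM, and with RNY1-/- ProteinFx at 146, 144, 155 and 128 CPM. The order of the groups was RNY1+/+ EVFx, RNY1-/- EVFx and RNY1+/+ ProteinFx, with no overlap between neighbours, and then PBS and RNY1-/- ProteinFx, which overlapped (adjusted p = 0.35). Ccl3 rose by 2.36 with RNY1+/+ EVFx (SE 0.13, adjusted p = 1.4e-07), by 1.97 with RNY1-/- EVFx (SE 0.13, adjusted p = 3.7e-07) and by 1.03 with RNY1+/+ ProteinFx (SE 0.15, adjusted p = 0.00015). The last value lies just past the fold limit of the call. It was 0.86 with total counts as scaling, 0.97 with scaling to Rab14, Arpc2 and Cltc and 0.99 with all 20 libraries in 1 fit. Without PBS replicate 3, PBS replicate 4 or RNY1+/+ ProteinFx replicate 4 it was 0.95, 0.98 and 0.91. Rab14, Arpc2 and Cltc are housekeeping genes that the paper chose from these data for little change between PBS and ProteinFx and between ProteinFx genotypes. Scaling to them is therefore not an independent check there, and they were not chosen for steadiness with EVFx.

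Ccl5 had the largest EVFx response of the ligands. From 195, 161, 71.6 and 126 CPM with PBS it reached 4160.0, 3786, 2552 and 4069 CPM with RNY1+/+ EVFx and 2034, 2279.5, 1266 and 1742 CPM with RNY1-/- EVFx. ProteinFx gave 815, 887, 732 and 1219 CPM from RNY1+/+ donors and 668, 597, 327 and 285 CPM from RNY1-/- donors. No 2 neighbouring groups in this order overlapped. Ccl5 rose by 4.89 with RNY1+/+ EVFx (SE 0.31, adjusted p = 3.5e-07), 3.96 with RNY1-/- EVFx (SE 0.30, adjusted p = 1.2e-06), 2.89 with RNY1+/+ ProteinFx (SE 0.28, adjusted p = 7.7e-06) and 1.81 with RNY1-/- ProteinFx (SE 0.33, adjusted p = 0.0025). T and natural killer cells also express Ccl5. Of 11 markers of these cells, Cd2 and Klrb1c were at 0 in all 20 libraries and the others had counts. The summed level of these markers was 2.97 to 9.43 CPM with PBS, and 2.30 to 4.38 and 1.18 to 2.101 CPM with RNY1+/+ and RNY1-/- EVFx. It was 0.868 to 1.91 and 0.259 to 4.48 CPM with RNY1+/+ and RNY1-/- ProteinFx. Their part in the Ccl5 values was not tested.

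Ccl4 varied least. Its levels were 537, 501, 360.5 and 377 CPM with PBS, 933, 774, 557 and 640.3 CPM with RNY1+/+ EVFx and 668, 636, 502 and 555 CPM with RNY1-/- EVFx. RNY1+/+ ProteinFx gave 836, 829, 852 and 847 CPM and RNY1-/- ProteinFx 364, 474, 439 and 393 CPM, and every neighbouring pair of groups in the order of means overlapped. Ccl4 rose by 1.09 with RNY1+/+ ProteinFx (SE 0.14, adjusted p = 6e-05). The log2 fold changes of 0.89 with RNY1+/+ EVFx (SE 0.18, adjusted p = 0.0022) and 0.65 with RNY1-/- EVFx (SE 0.15, adjusted p = 0.0034) were under the fold limit, which the first passed (1.06) after removal of trends with transcript length and GC.

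Ccl22 was at the limit of measurement. It had 1 to 6 counts per library with RNY1+/+ EVFx, at most 2 with RNY1+/+ ProteinFx and 1 with RNY1-/- ProteinFx, and 0 in all PBS and RNY1-/- EVFx libraries, where a count of 0 allows up to 0.686 and 0.739 CPM. Its highest value was 0.725 CPM. It was not tested, and no fold change is given.

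Both receptors fell with EVFx. Ccr3 was at 6.15, 6.80, 13.3 and 7.65 CPM with PBS, 1.03, 0.751, 0.801 and 1.09 CPM with RNY1+/+ EVFx and 1.05, 1.49, 2.46 and 1.01 CPM with RNY1-/- EVFx. It was at 14.6, 14.2, 19.1 and 15.6 CPM with RNY1+/+ ProteinFx and 9.63, 10.8, 16.3 and 14.8 CPM with RNY1-/- ProteinFx. The EVFx libraries lay below and the RNY1+/+ ProteinFx libraries above all PBS libraries, while RNY1-/- ProteinFx overlapped PBS. Ccr3 fell by 2.97 with RNY1+/+ EVFx (SE 0.32, adjusted p = 2.2e-05) and fell by 2.30 with RNY1-/- EVFx (SE 0.34, adjusted p = 2e-04), and rose by 1.09 with RNY1+/+ ProteinFx (SE 0.23, adjusted p = 0.0022). In EVFx libraries these levels rest on 4 to 10 counts. Ccr3 passed the filter on low counts there only through its PBS level, so its fall is given as a description. The rise was under the fold limit when the length and GC trends were removed (0.58), with total counts as scaling (0.92) and without PBS replicate 1 (0.97) or 2 (0.98). Ccr3 is known from eosinophils. Of 11 eosinophil and basophil markers, Epx, Il5ra and Gata1 were at 0 in all 20 libraries and the others had counts. The summed level of these markers was 2.16 to 4.13 CPM with PBS, 0.400 to 1.00 and 0.298 to 1.48 CPM with RNY1+/+ and RNY1-/- EVFx, and 1.01 to 3.27 and 1.195 to 4.00 CPM with RNY1+/+ and RNY1-/- ProteinFx; their part in the Ccr3 values was not tested.

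Ccr2 separated the 2 ProteinFx groups. It was at 3.89, 5.56, 10.8 and 6.23 CPM with PBS, 0.776, 2.00, 1.00 and 0.483 CPM with RNY1+/+ EVFx and 1.05, 0.447, 1.97 and 1.85 CPM with RNY1-/- EVFx. RNY1+/+ ProteinFx left it at 5.93, 6.08, 6.28 and 3.82 CPM, within the PBS range but for 1 library, whereas RNY1-/- ProteinFx libraries held 20.6, 16.1, 17.5 and 14.01 CPM, above all others. Ccr2 fell by 2.41 with RNY1+/+ EVFx (SE 0.43, adjusted p = 0.00085) and fell by 2.12 with RNY1-/- EVFx (SE 0.43, adjusted p = 0.0015), from 3 to 16 counts per library, and rose by 1.45 with RNY1-/- ProteinFx (SE 0.27, adjusted p = 0.0025). With EVFx it passed the filter on low counts only through its PBS level, so its fall is given as a description. In bulk libraries, fewer cells of a type and less RNA per cell cannot be told apart. Ccr2 marks inflammatory monocytes, and the summed level of 6 other monocyte markers, of which none was at 0 in a whole group, was 37.3 to 73.4 CPM with PBS, 21.1 to 30.5 and 16.5 to 31.98 CPM with RNY1+/+ and RNY1-/- EVFx, and 46.2 to 68.3 and 56.7 to 133 CPM with RNY1+/+ and RNY1-/- ProteinFx. Their part in the Ccr2 result was not tested.

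Genes were called where the adjusted p was under 0.05 and the absolute log2 fold change above 1, and 8 of the 9 genes passed the filter on low counts against PBS. Ccr2 and Ccr3 did so in the EVFx comparisons only through their PBS levels, so a gene at these levels could be seen to fall but hardly to rise, and the count of lower calls there is a description. With no filter their log2 fold changes were -2.34 and -2.89 with RNY1+/+ EVFx and -2.11 and -2.29 with RNY1-/- EVFx. With RNY1+/+ EVFx, 3 of 8 were called higher (Ccl12, Ccl3 and Ccl5) and 2 lower (Ccr2 and Ccr3), where 8.24% of all 10797 genes tested were called higher and 8.19% lower. RNY1-/- EVFx gave the same 5 calls, beside 9.01% and 13.5% of all genes. With RNY1+/+ ProteinFx, 7 of 8 were called higher and none lower, Ccr2 being the exception, beside 8.96% and 12.4% of all genes. With RNY1-/- ProteinFx, 5 of 8 were called higher (Ccl2, Ccl7, Ccl12, Ccl5 and Ccr2) and none lower, beside 6.31% and 7.99%, and Ccl3, Ccl4 and Ccr3 had log2 fold changes of -0.17, -0.02 and 0.66 with adjusted p = 0.35, 0.93 and 0.088. The same 5 were called in that comparison with replicates 1 and 2 of the group alone, and Ccr3 (1.02, adjusted p = 0.033) was added with replicates 3 and 4 alone. With total counts as scaling, 4 members were called with RNY1+/+ ProteinFx, since Ccl3, Ccl4 and Ccr3 had log2 fold changes of 0.86, 0.92 and 0.92. The median over the 8 genes tested was 0.65, 0.63, 1.99 and 1.63 in these 4 comparisons, against -0.03 in each over all genes tested. All 4 comparisons share the PBS libraries.

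**Figure D2:**
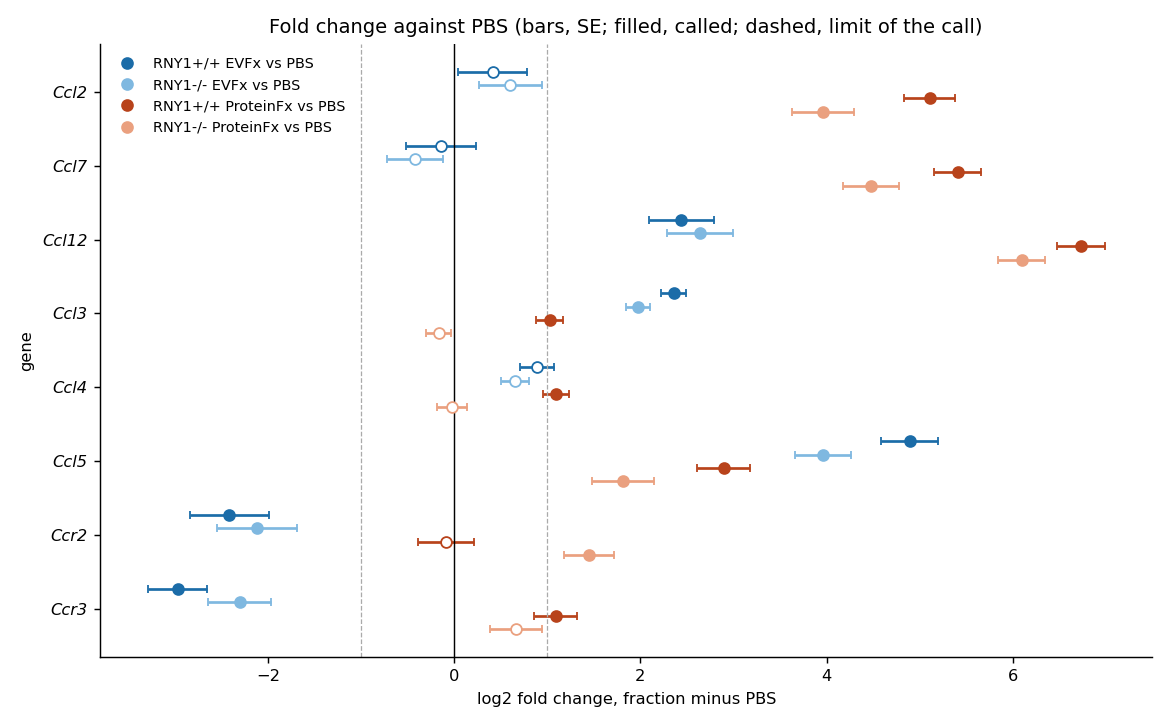
Log2 fold change of the 8 tested genes against PBS for each airway fluid fraction, with standard errors. Filled points were called and dashed lines mark the fold limit; the ProteinFx points of Ccl2, Ccl7 and Ccl12 lie between 3.96 and 6.73 and the EVFx points of Ccr2 and Ccr3 between -2.97 and -2.12.

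The 2 ligand sets were then contrasted within each library, as the mean log2 CPM of Ccl2, Ccl7 and Ccl12 minus that of Ccl3, Ccl4 and Ccl5. In 3′ end libraries a count stands for a transcript end, so levels do not scale with transcript length. The difference was -2.15, -2.25, -1.28 and -2.75 with PBS, with a mean of -2.11 ± 0.61 (SD, n = 4). With RNY1+/+ EVFx it was -3.48, -3.57, -4.50 and -4.61 (-4.04 ± 0.60) and with RNY1-/- EVFx -2.99, -3.14, -4.14 and -3.58 (-3.46 ± 0.52). Every EVFx library lay below every PBS library. ProteinFx turned the sign in every library, to 1.94, 2.20, 2.17 and 1.62 from RNY1+/+ donors (1.98 ± 0.27) and 1.73, 1.85, 2.68 and 2.52 from RNY1-/- donors (2.20 ± 0.48). The EVFx groups overlapped each other, as did the ProteinFx groups. Between PBS and RNY1+/+ EVFx the mean of the attractants moved from 5.51 to 6.28 log2 CPM and that of the other set from 7.62 to 10.3. With RNY1+/+ ProteinFx these means were 11.3 and 9.28.

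**Figure D3:**
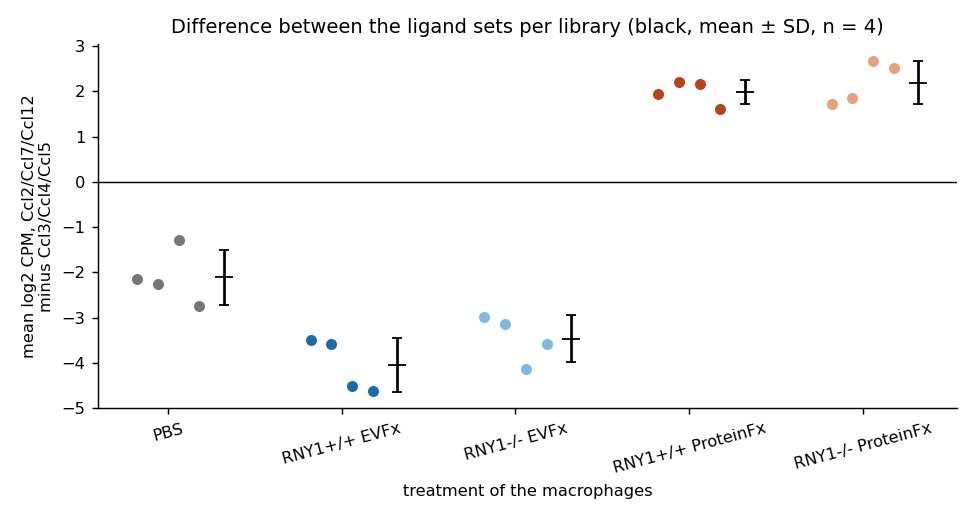
Mean log2 CPM of Ccl2, Ccl7 and Ccl12 minus that of Ccl3, Ccl4 and Ccl5 in each of the 20 libraries, by group, with the mean and SD of the 4 libraries in black. PBS and EVFx libraries lie between -4.61 and -1.28, and ProteinFx libraries between 1.62 and 2.68.

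Fractions of the same donor genotype were compared directly, although their doses are in different units. RNY1+/+ ProteinFx exceeded RNY1+/+ EVFx by 4.70 for Ccl2 (SE 0.30, adjusted p = 9.1e-09), 5.56 for Ccl7 (SE 0.31, adjusted p = 2.5e-09) and 4.29 for Ccl12 (SE 0.27, adjusted p = 8.4e-09). Ccl3 was lower with ProteinFx by 1.32 on this scale, a log2 fold change of -1.32 (SE 0.11, adjusted p = 1.4e-07), and Ccl5 had a log2 fold change of -1.99 (SE 0.17, adjusted p = 2.2e-07). Of the 6 ligands 3 were called higher and 2 lower, beside 6.71% and 6.82% of all genes, and Ccl4 had a log2 fold change of 0.21 (SE 0.13, adjusted p = 0.15). With RNY1-/- fluid the same 3 ligands were called higher and the same 2 lower, beside 4.82% and 4.15% of all genes, and this also held with each pair of RNY1-/- ProteinFx libraries alone. Ccl4 there had a log2 fold change of -0.67 (SE 0.12, adjusted p = 0.0011), under the fold limit. Ccr2 and Ccr3 passed the filter on low counts here only through ProteinFx, where they were high, so they are given as values alone, with log2 fold changes of 2.33 and 4.06 from RNY1+/+ donors and 3.57 and 2.95 from RNY1-/- donors.

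The effect of the donor genotype was next examined within each fraction. Between the EVFx groups 6 members passed the filter, Ccr2 and Ccr3 being too low, and edgeR called 0 of them, beside 0.378% of all genes called higher with RNY1-/- EVFx and 1.98% lower. DESeq2 also called 0, while 2 of the 6 had an unadjusted p under 0.05. These were Ccl5, with means of 1830.2 CPM with RNY1-/- and 3642 CPM with RNY1+/+ EVFx and a log2 fold change of -0.92 (SE 0.17, adjusted p = 0.001), and Ccl3, at 559 and 761 CPM with -0.38 (SE 0.08, adjusted p = 0.0023). Both passed the adjusted p, as did 52.1% of all genes at any fold. Neither gene's ranges overlapped. Ccl5 passed the fold limit without RNY1+/+ EVFx replicate 3 (-1.07) or RNY1-/- EVFx replicate 2 (-1.03). Ccl2, Ccl7, Ccl12 and Ccl4 had log2 fold changes of 0.20, -0.26, 0.21 and -0.23, with standard errors of 0.35, 0.34, 0.34 and 0.14 and overlapping ranges.

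Between the ProteinFx groups 4 of 8 members were called lower with RNY1-/- fluid and 1 higher, beside 1.17% and 0.659% of all genes. Ccl3 fell by 1.18 (SE 0.13, adjusted p = 0.00019), Ccl4 fell by 1.095 (SE 0.11, adjusted p = 0.00014), Ccl2 fell by 1.13 (SE 0.22, adjusted p = 0.0084) and Ccl5 fell by 1.06 (SE 0.24, adjusted p = 0.022). Ccr2 rose by 1.55 (SE 0.19, adjusted p = 0.00051), from a mean of 5.53 ± 1.15 to 17.1 ± 2.77 CPM. Ccl7 and Ccl12 passed the adjusted p, as did 5.57% of all genes at any fold, but not the fold limit, at -0.92 (SE 0.17, adjusted p = 0.0067) and -0.62 (SE 0.15, adjusted p = 0.026), and Ccr3 had -0.43 (SE 0.20, adjusted p = 0.25). All 6 measured ligands thus had a lower mean with RNY1-/- than with RNY1+/+ ProteinFx, and the ranges of Ccl12 overlapped. The share of all genes without overlap was not counted, here or between the EVFx groups, so overlap is given as a description. The median over the 8 genes was -0.99, against 0.02 over all genes tested.

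The pairs of RNY1-/- ProteinFx libraries differed in which ligand was lowest. With replicates 1 and 2 alone, Ccl2 had -1.62 (adjusted p = 3.6e-05), Ccl7 -1.22 (adjusted p = 5.1e-05) and Ccl5 -0.67 (adjusted p = 0.012). With replicates 3 and 4 alone, Ccl2 had -0.76 (adjusted p = 0.0095), Ccl7 -0.67 (adjusted p = 0.013) and Ccl5 -1.62 (adjusted p = 0.00041). The fold limit was thus passed by Ccl2 and Ccl7 in the first pair and by Ccl5 in the second. Ccl3 was called in both, at -1.21 and -1.15, as were Ccl4, at -1.14 and -1.05, and Ccr2, at 1.61 and 1.48. Ccl5 also missed the fold limit without RNY1+/+ ProteinFx replicate 4 (-0.87), with total counts as scaling (-0.96), and without RNY1-/- ProteinFx replicate 3 (-0.94) or 4 (-0.90), and Ccl2 without RNY1-/- ProteinFx replicate 1 (-0.98). Ccl7 passed it without RNY1-/- ProteinFx replicate 3 (-1.12).

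**Figure D4:**
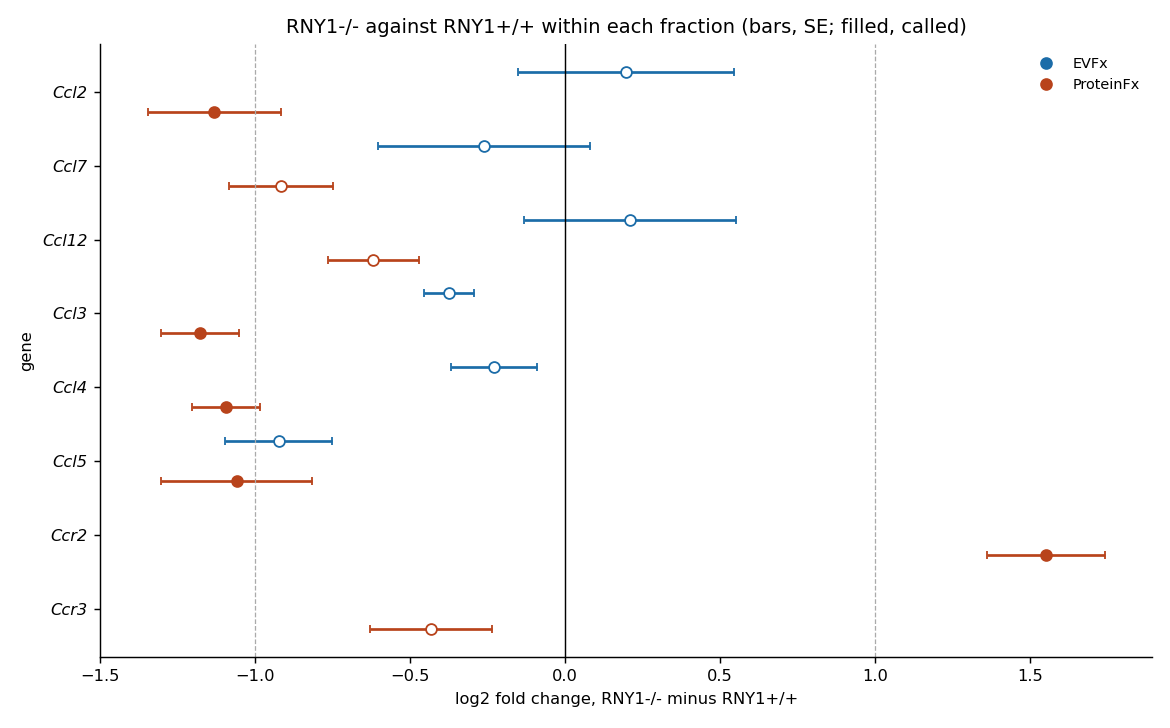
Log2 fold change of RNY1-/- against RNY1+/+ airway fluid within EVFx and within ProteinFx, with standard errors; filled points were called and dashed lines mark the fold limit. With ProteinFx the 6 ligands lie between -1.18 and -0.62 and Ccr2 at 1.55, and Ccr2 and Ccr3 were not tested between the EVFx groups.

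An interaction term, the genotype effect in ProteinFx minus that in EVFx, was fitted to the 16 libraries of cells given airway fluid. Of 8 members 1 was called, Ccl2 at -1.33 (SE 0.47, adjusted p = 0.038), on the lower side, where 2.46% of all genes lay, and none on the higher side, where 5.33% lay. This call depended on single libraries and settings. The adjusted p of Ccl2 was 0.053 with DESeq2, 0.062 with all 20 libraries in the fit, 0.25 with RNY1-/- ProteinFx replicates 3 and 4 alone and 0.0043 with replicates 1 and 2 alone, and it was between 0.055 and 0.085 when any of 9 single libraries was left out. These were RNY1+/+ EVFx replicates 3 and 4, RNY1-/- EVFx replicates 1, 2 and 4, RNY1+/+ ProteinFx replicates 2 and 4 and RNY1-/- ProteinFx replicates 1 and 2. Ccl3 and Ccl4 passed the adjusted p at -0.81 (SE 0.15, adjusted p = 0.0029) and -0.87 (SE 0.19, adjusted p = 0.0047), under the fold limit. With Ccl2 these are 3 of 8 members, beside 33.0% of all genes past the adjusted p at any fold, which is near the members' share. Ccl5 had -0.14 (SE 0.33, adjusted p = 0.76), that is, genotype effects of -0.92 in EVFx and -1.06 in ProteinFx. Ccr2 and Ccr3 had 3 to 16 counts per library with EVFx and entered this fit only through their ProteinFx levels, so their values of 1.26 (SE 0.53) and -1.09 (SE 0.42) are given with no call.

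Among the other 14 CC ligands listed, 4 or 5 passed the filter against PBS, and of 12 other receptors 2 did, Ccr1 and Ccrl2. Ccl11, Ccl1 and the receptor gene Ccr1l1 had 0 counts in all 20 libraries. Ccl8, the neighbour of Ccl12 and a ligand of Ccr8 in mice, had means of 75.9 ± 23.8 CPM with PBS, 93.4 ± 38.1 and 86.8 ± 30.6 CPM with RNY1+/+ and RNY1-/- EVFx, and 1516 ± 408 and 1711 ± 368 CPM with RNY1+/+ and RNY1-/- ProteinFx. It rose by 4.48 (SE 0.27, adjusted p = 1.2e-07) and 4.55 (SE 0.26, adjusted p = 5.5e-07) with ProteinFx, and differed by 0.09 between the genotypes (SE 0.19, adjusted p = 0.85), so the 4 measured genes of the row Ccl2, Ccl7, Ccl12 and Ccl8 were all called higher with both ProteinFx preparations. Ccl9, a Ccr1 ligand, was called higher with both as well, at 1.52 (SE 0.12, adjusted p = 9.1e-07) and 1.17 (SE 0.12, adjusted p = 3.9e-05), the latter 0.77 and not called with length and GC trends removed. Ccl6, another Ccr1 ligand of macrophages, fell from 719 ± 192 CPM with PBS to 135 ± 24.4 CPM with RNY1+/+ EVFx and 97.4 ± 6.59 CPM with RNY1-/- EVFx. Its log2 fold changes were -2.24 (SE 0.21, adjusted p = 6.4e-06) and -2.65 (SE 0.19, adjusted p = 7.5e-07), and with RNY1+/+ ProteinFx it fell by 1.08 (SE 0.20, adjusted p = 0.00091), a value of -0.93 without PBS replicate 1 and -0.98 without RNY1+/+ ProteinFx replicate 2. Ccl24, an eosinophil attractant acting on Ccr3 and named after its values were seen, was at 0.178 to 0.820 CPM with PBS, 0.375 to 1.602 and 0 to 0.985 CPM with RNY1+/+ and RNY1-/- EVFx, and 6.59 to 12.8 and 4.38 to 13.01 CPM with RNY1+/+ and RNY1-/- ProteinFx.

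The neighbouring receptors Ccr1, Ccr3 and Ccr2 were all lower with both EVFx preparations than with PBS. Ccr1, a receptor of Ccl3 and Ccl5, was at 43.4 ± 14.9 CPM with PBS, 6.59 ± 0.65 and 7.85 ± 1.099 CPM with RNY1+/+ and RNY1-/- EVFx, and 151 ± 18.2 and 175 ± 37.6 CPM with RNY1+/+ and RNY1-/- ProteinFx. Its log2 fold change was -2.54 with RNY1+/+ EVFx (SE 0.23, adjusted p = 6.3e-06) and -2.21 with RNY1-/- EVFx (SE 0.24, adjusted p = 1.8e-05). ProteinFx raised it by 1.98 from RNY1+/+ donors (SE 0.20, adjusted p = 1.2e-05) and 2.09 from RNY1-/- donors (SE 0.25, adjusted p = 0.00013). In EVFx-treated cells the ligands Ccl3 and Ccl5 were therefore higher than with PBS while their receptor Ccr1 was lower. Ccrl2, an atypical receptor that binds chemerin without G protein signalling, was at 14.3 ± 2.60 CPM with PBS and rose with RNY1+/+ EVFx (2.43), RNY1-/- EVFx (2.17) and RNY1+/+ ProteinFx (1.72). With RNY1-/- ProteinFx it had 0.99, under the fold limit.

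**Figure D5:**
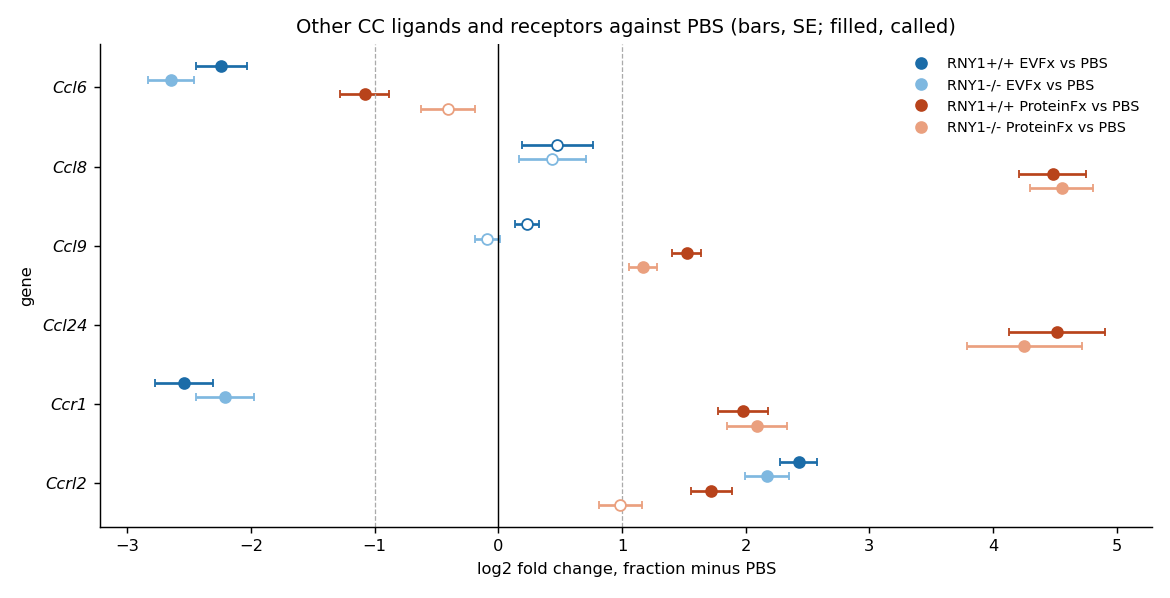
Log2 fold change against PBS, with standard errors, of the other CC ligands and receptors named in the text; filled points were called and dashed lines mark the fold limit. Ccr1 lies at -2.54 and -2.21 with EVFx and at 1.98 and 2.09 with ProteinFx. Ccl24 was not tested in the EVFx comparisons. With ProteinFx it passed the filter on low counts only through its level there, so its points are a description and not read as calls.

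Of 24 genes for signalling below chemokine receptors 23 were tested against PBS. With RNY1+/+ EVFx 4 were called higher and 3 lower, beside 8.24% and 8.19% of all genes, and with RNY1-/- EVFx 3 and 4, beside 9.01% and 13.5%. With RNY1+/+ ProteinFx 1 was called higher and 5 lower, beside 8.96% and 12.4%, and with RNY1-/- ProteinFx 1 and 4, beside 6.31% and 7.99%. Counts this small are not read as a result about the list. Jak2, a kinase of cytokine receptors, rose in all 4 comparisons by 2.096 to 2.651. Grk3, a kinase that marks active receptors for shut-off, rose by 1.78 with RNY1+/+ EVFx (SE 0.23, adjusted p = 8.4e-05), and had 0.53 with RNY1+/+ ProteinFx (adjusted p = 0.14). Rgs2 and Rgs1 speed the end of G protein signals. Rgs2 fell by 2.60 with RNY1+/+ EVFx (SE 0.11, adjusted p = 2.2e-08) and fell by 1.72 with RNY1+/+ ProteinFx (SE 0.13, adjusted p = 9.7e-07), and Rgs1 fell by 1.26 with RNY1+/+ EVFx (SE 0.15, adjusted p = 3.7e-05). Arrb1, an arrestin that uncouples and internalises receptors, fell by 1.73 with RNY1+/+ ProteinFx (SE 0.25, adjusted p = 0.00019).

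Across the 20 libraries, the genes whose log2 CPM was most like that of Ccl2, among 7553 genes with a mean of at least 10 CPM, were Ccl7 (Pearson r = 0.985), Luzp1 (0.982) and Ccnd2 (0.980). For Ccl3 they were Morrbid (0.986), Eif4g2 (0.981) and Pik3r5 (0.976), and for Ccr2 Tm7sf3 (0.941), Ccdc115 (0.934) and Ncapg2 (0.923). Within the members, Ccl2 and Ccl12 had r = 0.951 and Ccl3 and Ccl5 r = 0.909, while Ccl2 and Ccl3 had r = -0.347 and Ccl3 and Ccr2 r = -0.903. The points share the 5 treatments, so these values describe the differences between the groups more than those within them.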

How the data were processed

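Bulk RNA-seq of the treated BMDMs used 3′ end libraries with unique molecular identifiers. Per the paper's methods and the submitters' processing notes, the authors trimmed reads with fastp 0.24.0, aligned them with STAR 2.7.11 to GRCm39, removed duplicate molecules, and counted reads by strand with featureCounts (Subread 2.1.1), sharing reads that map to several places. The deposited expression matrix holds expected counts per gene, fractional for 23.6 to 26.3% of detected genes, and CPM, each count divided by its library total as the authors deposited it. Counts were rounded here to whole numbers for tests, and CPM were used for levels. Total counts ranged from 2510005 to 8277366, and limits from counts cover counting error only. Sharing of reads between similar genes can shift their levels, but fractional counts were found in at most 4 of 20 libraries for any member.

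Each comparison of 2 groups was fitted to its own 8 libraries with edgeR 4.0.16 (quasi-likelihood test, TMM scaling, R 4.3.3), for genes that passed filterByExpr and averaged 3 CPM or more, and the interaction to 16 libraries. P-values were two-sided and adjusted by Benjamini-Hochberg over all genes tested. A gene was called at an adjusted p below 0.05 with a change of more than 1 on the log2 scale, up or down. Ligand sets were compared on log2 CPM with a prior count of 2. Alternatives were DESeq2 1.42.0, other scalings, filters and limits, thinned counts, trends with length and GC content removed, a replicate block, all 20 libraries in 1 fit, and each library left out.

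The members and gene lists were chosen with earlier results of these data known. The text names the 9 members, other CC genes called in a 2-group comparison with a group mean of at least 10 CPM, and, of the signalling list, the 2 largest rises and falls against PBS with each RNY1+/+ fraction. Ccl24, below that level, was named after its values were seen, and 1 gene is not reported here. Same-numbered libraries had correlated deviations from group means in RNY1-/- EVFx against PBS (correlations 0.142, 0.381, 0.244 and 0.129) and RNY1-/- ProteinFx against RNY1-/- EVFx (0.218, 0.399, 0.286 and 0.274). The best partner had the same number only for replicates 2 and 3 in the first comparison and replicates 2, 3 and 4 in the second. Gene order came from a GRCm38 annotation, so no coordinates of genes are given, and promoters from RefSeq.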

Additional observations from a re-analysis of the deposited data

Results flagged for a closer look

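In 2 groups of 4 libraries, of 96 looked at, 1 library stood apart from the other 3 by more than Dixon's critical share of the range, which chance alone does in about 1 of 20 groups. Ccr2 was at 3.82 CPM in RNY1+/+ ProteinFx replicate 4, against 5.93, 6.08 and 6.28 CPM in the others (gap 0.858 of the range). Without that library the log2 fold change of Ccr2 against PBS was 0.06 in place of -0.09. Arrb1 had a lowest library at 3.52 CPM with RNY1+/+ ProteinFx (gap 0.888 of the range).

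The interaction test over 16 libraries, of the effect of the donor genotype in ProteinFx against that in EVFx, passed the adjusted p for 7 of the genes named, where 33.0% of all genes tested did, so the number is not a result about these genes. On the log2 scale, ProteinFx minus EVFx, the difference was -1.33 for Ccl2 (adjusted p = 0.038), -0.81 for Ccl3 (adjusted p = 0.0029) and -0.87 for Ccl4 (adjusted p = 0.0047). It was 1.09 for Ccl6 (adjusted p = 0.0037), -0.53 for Jak2 (adjusted p = 0.01), 0.41 for Rgs2 (adjusted p = 0.036) and 1.15 for Arrb1 (adjusted p = 0.016). With replicates 3 and 4 of RNY1-/- ProteinFx alone, Ccl2 (-0.95, adjusted p = 0.25), Arrb1 (0.65, adjusted p = 0.33), Jak2 (-0.38, adjusted p = 0.11) and Rgs2 (0.39, adjusted p = 0.14) no longer passed, and Ccl6 had 0.85 (adjusted p = 0.03), under the fold limit. With length and GC trends removed, Jak2 (-0.26, adjusted p = 0.11) and Ccl2 (-1.19, adjusted p = 0.061) did not pass, and Arrb1 had 0.92 (adjusted p = 0.034).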

How the results depend on the processing

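Members called against PBS, between fractions and between the ProteinFx genotypes stayed within 1.5 times under every alternative, except 4 in place of 7 with RNY1+/+ ProteinFx when library totals set the scale. Between the EVFx genotypes 0 became 1 with no filter and 2 with the adjusted p alone, and 0 to 1 with 1 library left out. The interaction's 1 became 2 with no filter, 3 with the adjusted p alone, 3 and 0 with RNY1-/- ProteinFx replicates 1 and 2 or 3 and 4 alone, 0 with all 20 libraries in 1 fit, and 0 to 3 with 1 library left out. The counts with no filter, with replicates 1 and 2 alone and some with 1 library left out include Ccr2 or Ccr3. Both are low with EVFx and are given with no call in the interaction. Leaving out 1 library gave 4 to 5, 5, 6 to 7 and 5 calls against PBS, 4 to 5 between ProteinFx genotypes, and 6 to 7 and 7 between fractions. It moved the ligand set difference to between -2.38 and -1.89 with PBS, -4.23 and -3.85 with RNY1+/+ EVFx, -3.62 and -3.24 with RNY1-/- EVFx, 1.91 and 2.103 with RNY1+/+ ProteinFx, and 2.03 and 2.35 with RNY1-/- ProteinFx.

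Signs turned only for members that were not called. Ccr2 with RNY1+/+ ProteinFx against PBS was 0.17 with thinned counts, and -0.27 to 0.21 with 1 library left out (above 0 without PBS replicate 3 or RNY1+/+ ProteinFx replicate 4). Ccl4 with RNY1-/- ProteinFx against PBS was 0.001 with DESeq2, 0.005 with no filter, 0.187 with length and GC trends removed, 0.189 with these and the replicate block, 0.037 with RNY1-/- ProteinFx replicates 3 and 4 alone, and -0.115 to 0.087 with 1 library left out. Between EVFx genotypes Ccl12 was -0.016 with length and GC trends removed, -0.045 with these and the block and -0.05 to 0.498 with 1 library left out (below 0 without RNY1-/- EVFx replicate 1), Ccl2 was -0.023 to 0.449 (below 0 without RNY1+/+ EVFx replicate 3 or 4), and Ccl7 -0.49 to 0.035 (above 0 without RNY1+/+ EVFx replicate 1). Ccl7 with RNY1+/+ EVFx against PBS was -0.457 to 0.083 (above 0 without RNY1+/+ EVFx replicate 3 or 4). The interaction of Ccl5 was 0.037 with library totals, 0.263 with RNY1-/- ProteinFx replicates 1 and 2 alone, and -0.326 to 0.045 with 1 library left out (above 0 without replicate 4 of RNY1+/+ or of RNY1-/- ProteinFx). The cause of these changes was not tested.

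The replicate block left 5 members called in RNY1-/- EVFx against PBS and 7 in RNY1-/- ProteinFx against RNY1-/- EVFx. Both counts include Ccr2 and Ccr3, which passed the filter on low counts only through the group where they were higher. For these genes the counts are a description. Same-numbered libraries correlated in these comparisons, but not every library best with its own number, so pairing is not taken. In RNY1-/- ProteinFx against PBS replicates 1, 2 and 3 correlated best with their own number (0.511, 0.623 and 0.641), but replicate 4 did not (0.018), so pairing is not taken for all 4. There Ccr3 had 0.71 with the block (adjusted p = 0.0013 in place of 0.088), still under the fold limit. Among members, the block changed calls in the interaction alone, where Ccl2 (-1.28, adjusted p = 0.052) did not pass. Ccr3 had -1.08 with the block, given with no call because it entered that fit only through its ProteinFx levels.

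Over all genes, library totals moved the median log2 fold change against PBS to -0.21, -0.27, -0.20 and -0.10, so folds near the limit depend on the scaling. The share of calls that were higher moved from 50.17 to 37.63%, 40.02 to 24.61% and 42.02 to 29.53% with library totals in the first 3 of these comparisons, from 36.13 to 50.5% between ProteinFx genotypes, 53.75 to 68.8% between RNY1-/- fractions and 68.43 to 87.91% in the interaction, and with length and GC trends removed from 44.14 to 57.72% with RNY1-/- ProteinFx against PBS, 16.05 to 63.44% between EVFx genotypes and 68.43 to 46.43% in the interaction. Scaling to Rab14, Arpc2 and Cltc moved it from 49.61 to 37.91% between RNY1+/+ fractions. All genes called went from 243 to 93 between EVFx genotypes and from 814 to 420 in the interaction with these trends removed, to 99 without RNY1+/+ EVFx replicate 4, from 191 to 405 between ProteinFx genotypes with RNY1-/- replicates 1 and 2 alone and 116 without RNY1+/+ ProteinFx replicate 4, from 1552 to 918 with replicates 1 and 2 alone against PBS, and from 814 to 1903 and 101 in the interaction with replicates 1 and 2 or 3 and 4 alone, and 536 and 484 without replicate 1 or 2. Depth kept Ccl22, with 0 to 6 counts per library, from being tested, and limits Ccr2 and Ccr3, with 3 to 16 counts per library with EVFx.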

Other observations

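Ccl6 moved in the opposite direction to most of the ligands described. Its level fell with both EVFx preparations while Ccl5, Ccl3 and Ccl12 rose, and within ProteinFx its mean was higher with RNY1-/- fluid, 521 ± 125 CPM against 304 ± 58.0 CPM (SD, n = 4), where those of the 6 measured ligand members were lower. That difference was 0.69 on the log2 scale (SE 0.16, adjusted p = 0.026), under the fold limit. Ccrl2 had a higher mean with every fraction than with PBS, from 27.1 ± 4.53 CPM with RNY1-/- ProteinFx to 68.4 ± 8.25 CPM with RNY1+/+ EVFx, and its mean was lower with RNY1-/- than with RNY1+/+ fluid in both fractions, with log2 fold changes of -0.25 in EVFx (adjusted p = 0.1) and -0.71 in ProteinFx (adjusted p = 0.0096), neither of them called.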
